A study of Oryza coarctata with 5 samples.

Results

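Plants kept in 450 mM NaCl were compared with plants kept in water (the control) in *Oryza coarctata* (*Porteresia*), a wild relative of rice that grows on saline, tidally flooded coasts. Each treatment is 1 RNA-sequencing library. Transcripts were chosen by a rule on the deposited RPKM values (read counts divided by transcript length and by library size): RPKM of at least 1 at 450 mM NaCl or in the control, and RPKM above 0 in all 5 libraries of the series. The rule kept 68397 of 152367 assembled transcripts, and these are the transcripts described below. They held 95.2% of the summed RPKM at 450 mM NaCl and 95.3% in the control.

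The other 3 libraries are plants in 700 mM NaCl, plants submerged in 450 mM NaCl and plants submerged in water. Per the labels, the plants came from natural conditions and the tissue is given as mature plant. The sources used here state no genotype, age, number of plants or duration of treatment. With 1 library per treatment the spread between plants is unknown, so no test was possible, no p-value is given, and every difference below is a difference between single libraries. In RNA from whole tissue, fewer cells of a type and less RNA per cell cannot be told apart.

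Halophytes such as *Porteresia* face both the osmotic pull of a saline solution and the toxicity of sodium itself. Plants in general respond with sodium transporters at the plasma membrane and the vacuole, with small compatible solutes such as proline and inositol derivatives, and with water channels and protective proteins. *Porteresia* is also known for salt hairs on its leaves that secrete salt. The deposited transcripts carry assembly numbers without gene names or sequences, so none of the values below could be tied to these functions, and marker genes of the tissue could not be looked up. Several transcripts can belong to 1 gene.

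The read totals behind the libraries, solved from the steps between RPKM values, were 59818916 reads at 450 mM NaCl and 56638113 in the control, and 58431827 to 78997383 in the other 3 libraries. The median transcript of the set had 112 reads at 450 mM NaCl and 117 in the control. Differences are given as the log2 ratio of RPKM + 0.5 at 450 mM NaCl to RPKM + 0.5 in the control, which understates the change of low transcripts. Folds given with an interval are ratios of RPKM without the added 0.5, and their exact 95% intervals (Clopper-Pearson) cover counting error only.

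Most transcripts stood at nearly the same level in salt as in water. The median log2 ratio was −0.09, the quartiles were −0.35 and 0.16, and 96.2% of transcripts lay within 2-fold. Between the libraries, Pearson's r over the 68397 log2 levels was 0.96 and Spearman's rho was 0.92. Transcripts are not replicates, and these coefficients describe a pair of libraries.

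At 2-fold or more, 666 transcripts (0.974%) were higher at 450 mM NaCl and 1906 (2.79%) were lower. Over all 71076 transcripts that reach RPKM 1 in either library, with no condition on the other libraries, 2.92% were higher and 3.38% lower. At 4-fold or more, 15 transcripts were higher (0.0219%, against 0.322% without the condition) and 114 were lower (0.167%, against 0.492%). At 8-fold or more these numbers were 2 and 21. Higher transcripts made up 25.9% of the 2-fold calls without further scaling, 36.7% with median-of-ratios scaling and 39.6% when ratios were taken relative to the median of the set. The number of calls followed the pseudocount: adding 0.1 in place of 0.5 gave 1459 higher and 4015 lower, and adding 1 gave 237 and 751.

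**Figure D1:**
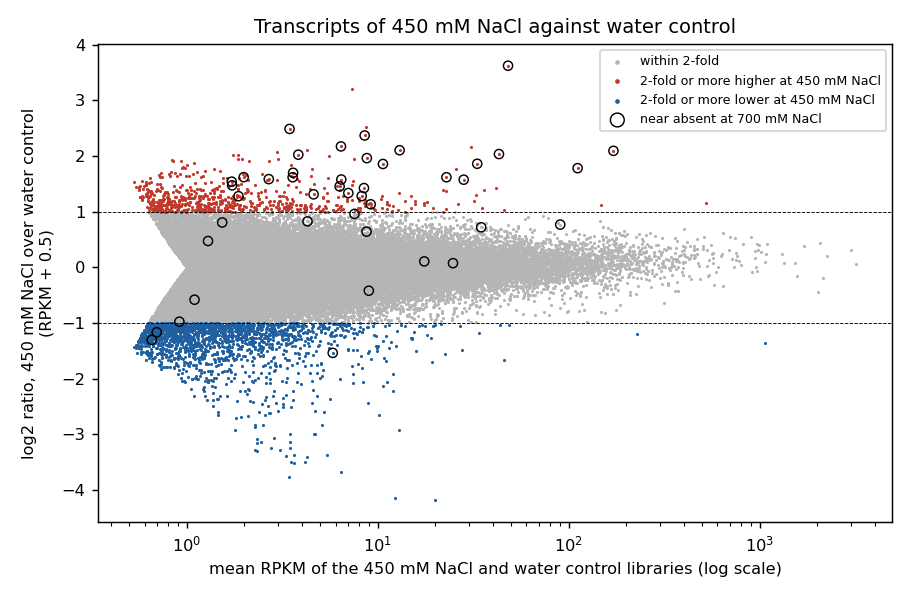
Each point is 1 of 68397 transcripts, with its mean RPKM in both libraries on a log axis and its log2 ratio of 450 mM NaCl to water control. The 666 higher transcripts are red, the 1906 lower ones blue, dashed lines mark 2-fold, and circles mark the 43 transcripts that were near absent at 700 mM NaCl; the notch at the left comes from the minimum of RPKM 1.

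The condition on all 5 libraries removed 2679 transcripts, and their calls ran the other way. Of the 2679, 2159 stood at RPKM 0 at 700 mM NaCl, 1663 of them in that library alone. Among the removed transcripts 1407 were higher at 450 mM NaCl and 498 lower, a call rate of 71.1% against 3.76% among those kept. Part of this was built in. Of the removed transcripts, 401 stood at RPKM 0 at 450 mM NaCl and 131 at RPKM 0 in the control. With RPKM of at least 1 in the other library, the 401 had to be called lower and the 131 higher. The median log2 ratio of all 2679 removed transcripts was 1.06. In 43 of those kept, RPKM at 700 mM NaCl was under 2% of the mean of the other 4 libraries, from 1 to 16 reads each. Summed over the 43 there were 106754 reads at 450 mM NaCl against 28541 in the control, with 116 at 700 mM, 56263 in submergence in 450 mM NaCl and 158246 in submergence in water. Of the 43, 28 were 2-fold higher at 450 mM NaCl and 3 were lower, with a median log2 ratio of 1.46. The next step, from 2% to 4% of the mean of the other libraries, held 33 transcripts with a median log2 ratio of −0.99. Without the 43, 638 transcripts were higher and 1903 lower. The 2% limit was set after these values were seen.

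Scatter narrowed with expression level up to a mean RPKM of 100, and the balance of directions shifted with level. In transcripts with a mean RPKM of 1 to 2 over both libraries (20096 transcripts) the quartiles of the log2 ratio were −0.41 and 0.15. At a mean RPKM of 10 to 20 (6649) they were −0.21 and 0.15, and at 50 to 100 (1578) −0.08 and 0.18. The median counting error of the log2 ratio (1 SE) in the same classes was 0.22, 0.07 and 0.03. The spread of the log2 ratio, scaled from the interquartile range to an SD, was 0.42, 0.27 and 0.19. The spread thus exceeded the counting error in each of these classes, by the widest factor in that of 50 to 100. Above it the interquartile range was 0.27 at 100 to 500 and 0.30 at 500 and over, against 0.26 at 50 to 100. Without replicates that excess cannot be divided between salt and the difference between any pair of plants.

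Calls in both directions were concentrated in weakly expressed transcripts, and the excess of lower calls lay there. A mean RPKM below 2 was found in 64.1% of the higher and 70.8% of the lower transcripts, and in 38.7% of the whole set. Below a mean RPKM of 10, 620 transcripts were 2-fold higher and 1862 lower. At 10 and over, 46 were higher and 44 lower among 14035. In the class of 1 to 2 the shares were 1.01% higher and 3.33% lower, and in the class of 5 to 10 they were 0.641% and 1.02%. From 50 to 100 no transcript of 1578 was past 2-fold either way, while 19 were higher and 11 lower at 1.5-fold. In the class below 1, 3.51% were higher and 10.6% lower, but a transcript there must have RPKM of at least 1 in 1 library and less in the other, so some difference is built in there.

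**Figure D2:**
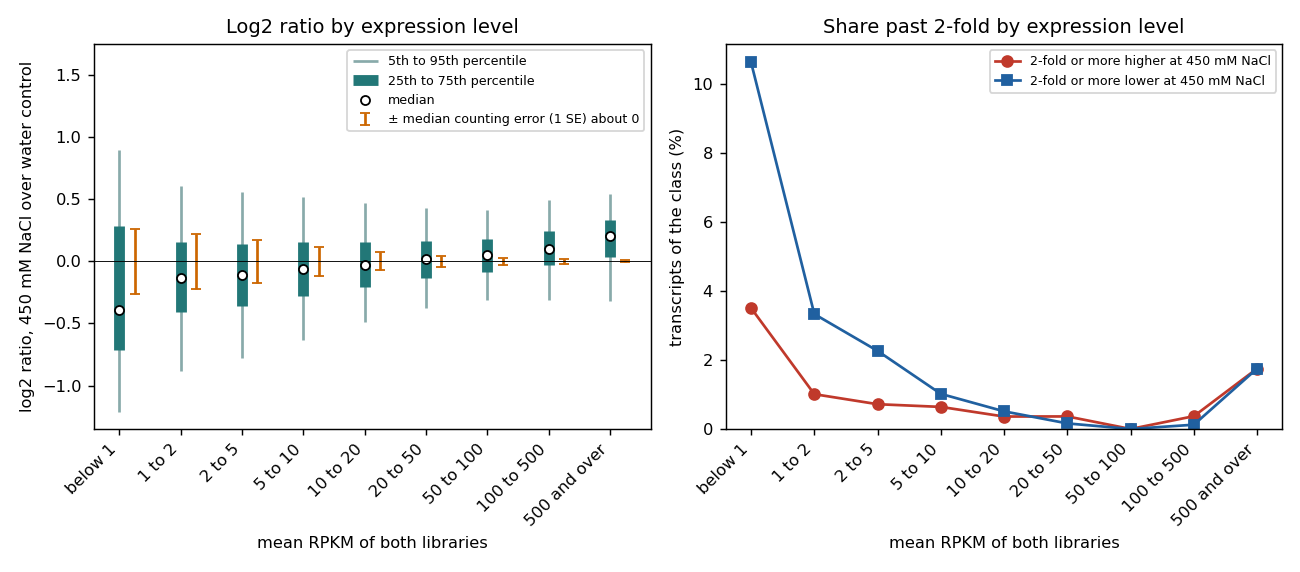
Left, the log2 ratio of 450 mM NaCl to water control in 9 classes of mean RPKM, with the median, the quartiles and the 5th and 95th percentiles, beside the median counting error about 0. Right, the percentage of each class that was 2-fold or more higher or lower; lower calls exceed higher ones in every class below RPKM 20, and the curves meet or cross above it.

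The centre of the distribution moved too. The median log2 ratio was −0.13 at a mean RPKM of 1 to 2, −0.11 at 2 to 5, −0.06 at 5 to 10, −0.03 at 10 to 20 and 0.02 at 20 to 50. Above that it was 0.05 at 50 to 100, 0.10 at 100 to 500 and 0.21 in the 57 transcripts at 500 and over. The abundant end was therefore slightly higher in salt and the weak end slightly lower, all by much less than 2-fold. The log2 factor of median-of-ratios scaling was −0.09, and this scaling raised the ratios. The sign of a negative class median smaller in size than that therefore depends on the scaling. Scaling to equal sums of RPKM had a log2 factor of 0.018 and lowered the ratios, against a median of 0.016 at 20 to 50. Between transcripts at 100 and over and those below 2 the medians differed by 0.29 on the log2 scale. With median-of-ratios scaling this difference was also 0.29. When level was taken from the mean of the other 3 libraries, which enter neither side of the ratio, the difference was 0.18. In those classes the median went up in every step, from −0.14 below RPKM 1 to 0.09 at 500 and over.

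Called transcripts were also short. The median length was 366.5 nt among the higher ones and 369 nt among the lower ones, against 668 nt among transcripts within 2-fold. Of those 200 to 299 nt long, 1.90% were higher and 5.18% lower, and of those of 2000 nt and over, 0.336% and 1.43%. A short transcript gathers fewer reads at the same RPKM. The median counting error of the log2 ratio was 0.29 in the shortest class and 0.06 in the longest. These classes also differed in level, with a median mean RPKM of 2.32 and 6.09. Among transcripts with a mean RPKM of 10 to 50 the errors were 0.13 and 0.03. At a mean RPKM of 10 to 50 the shortest class had 0.294% higher and 0.352% lower, and the longest 0.217% and 0.435%. There the shortest and the longest class thus lay closer together. The classes in between had 0.661% and 0.463% at 300 to 499 nt, 0.538% and 0.196% at 500 to 999 nt, and 0.280% and 0.364% at 1000 to 1999 nt. All 2572 called transcripts had an interval of the ratio of reads that leaves out 1, as had 42.6% of the transcripts within 2-fold. For the called transcripts this was built in by the minimum RPKM, the pseudocount and the minimum length. The interval is therefore no separate check of the calls.

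Abundant transcripts stayed close to the control, although the most abundant were not the closest to it. The 100 most abundant, with mean RPKM from 366 to 3205, had a median absolute log2 ratio of 0.22, which is 1.17-fold, against 0.16 in the 1000 and 0.15 in the 5000 most abundant. Of the 100, 96 lay within 1.5-fold, 3 were higher and 1 was lower by more than that, and 1 in each direction passed 2-fold. The direction was uneven, with 80 of the 100 above the control and 20 below, against 40.8% above it in the whole set. The median log2 ratio was 0.20 in the 100, 0.10 in the 1000 and 0.05 in the 5000 most abundant. The quartiles were 0.03 and 0.32, −0.03 and 0.24, and −0.10 and 0.19. Abundance was ranked on the mean of both libraries, so the ranking is not independent of the ratio. These 100 held 10.3% of the summed RPKM at 450 mM NaCl and 9.41% in the control. The 100 highest transcripts of either library shared 88 members. Among the 1000 most abundant, 22 were higher and 14 lower at 1.5-fold, against a background of 16.4% past 1.5-fold either way in the whole set, and 4 and 2 passed 2-fold. After median-of-ratios scaling the median absolute log2 ratio of the top 100 was 0.30.

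**Figure D3:**
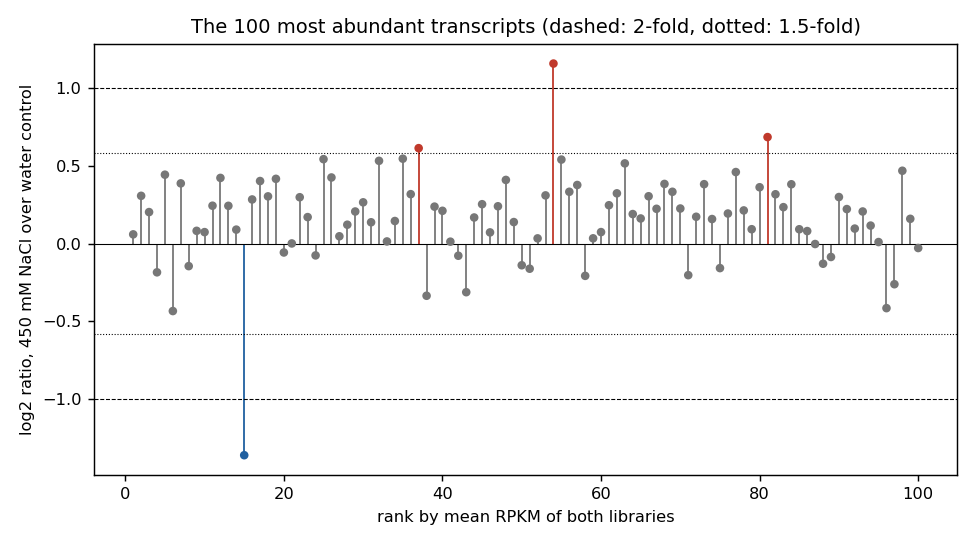
Log2 ratio of 450 mM NaCl to water control for the 100 most abundant transcripts, in order of mean RPKM. Of the 100, 80 lie above 0, against 40.8% of the whole set. Inside the dotted 1.5-fold lines lie 96, and 1 in each direction lies beyond the dashed 2-fold lines.

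The 10 most abundant transcripts all stayed within 1.5-fold, with log2 ratios from −0.43 to 0.44. Pc_TC038631 (881 nt), the most abundant, stood at 3272 RPKM at 450 mM NaCl and 3139 in the control, a fold of 1.04 (1.04 to 1.05). Pc_TC004232 stood at 1377 RPKM at 450 mM NaCl and 1308 in the control. Pc_TC001241 stood at 1572 RPKM at 450 mM NaCl and 1485 in the control. These 3 transcripts kept nearly the same proportion to each other in every library, with 2073, 874 and 979 RPKM at 700 mM NaCl, 4297, 1755 and 2039 in submergence in 450 mM NaCl, and 6700, 2695 and 3164 in submergence in water. Each of the 3 was nearer to the control at 450 mM NaCl than in any other library.

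Of the other 7, some stood much further from the control in other libraries. Pc_TC117680 (498 nt) stood at 3332 RPKM at 450 mM NaCl and 2691 in the control, and Pc_TC000708 (1683 nt) at 2413 RPKM at 450 mM NaCl and 2096 in the control. Pc_TC021886 (3063 nt) was the highest of the 10 by ratio, at 2388 RPKM at 450 mM NaCl against 1754 in the control, 1.361-fold higher (1.355 to 1.367). The same transcript stood at 1141 RPKM in submergence in 450 mM NaCl and 261 in submergence in water. Pc_TC100998 (390 nt) had 1935 RPKM at 450 mM NaCl and 1478 in the control, with 442 in submergence in 450 mM NaCl and 92.9 in submergence in water. Both stood lower under water than in the control. Pc_TC029576 stood at 2017 RPKM in salt and 2292 in the control, and Pc_TC012156 at 1494 RPKM in salt and 1652 in the control, both slightly lower in salt. Pc_TC001301 (2366 nt) was the lowest by ratio, at 1719 RPKM in salt against 2323 in the control, 1.351-fold lower (1.344 to 1.359).

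Transcripts with a mean RPKM of 100 and over numbered 864, of which 4 (0.463%) were 2-fold higher and 2 (0.231%) lower. In the whole set 0.974% were higher and 2.79% lower. The pair with the highest ratios belonged to the near-absent transcripts: Pc_TC014070 (2606 nt) stood at 278 RPKM at 450 mM NaCl, against 64.7 in the control and 0.072 at 700 mM, and Pc_TC016641 (1810 nt) at 173 RPKM, against 49.8 in the control and 0.057 at 700 mM. Without such transcripts the highest ratio was that of Pc_TC083158 (353 nt), which stood at 723 RPKM in salt and 323 in the control, 2.24-fold higher (2.17 to 2.30). It was also at 544 RPKM at 700 mM, 697 in submergence in 450 mM NaCl and 295 in submergence in water. All 3 libraries with salt thus stood above both libraries without it. Pc_TC066689 (1032 nt) followed, at 203 RPKM in salt and 92.9 in the control, 2.19-fold higher (2.12 to 2.26). This transcript was highest at 700 mM, at 384 RPKM, and low under water, at 33.1 with salt and 15.9 without. Pc_TC094833 (487 nt) had 186 RPKM in salt and 104 in the control, 1.79-fold higher (1.71 to 1.88), and 55.9 at 700 mM.

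At the lower end of the abundant transcripts, the pair with the lowest ratios did not follow the dose. Pc_TC035092 (2875 nt), rank 15 by abundance, stood at 595 RPKM at 450 mM NaCl against 1532 in the control, 2.57-fold lower (2.56 to 2.59), yet it was highest of all at 700 mM, at 3904 RPKM. Pc_TC054490 (510 nt) had 138 RPKM in salt and 316 in the control, 2.29-fold lower (2.20 to 2.37), and 1095 at 700 mM. Both were therefore lowest at 450 mM among the 5 libraries, with submergence in 450 mM NaCl (847 and 201 RPKM) and in water (1078 and 246 RPKM) in between. The other 3 of the 5 lowest, Pc_TC026833, Pc_TC115079 and Pc_TC079208, were 1.969-fold, 1.766-fold and 1.754-fold lower. Pc_TC026833 (1920 nt) stood at 83.6 RPKM in salt and 165 in the control, at 53.7 at 700 mM, and at 239 and 501 in submergence in 450 mM NaCl and in water. It was lower in salt than without it both without submergence and under water.

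The largest ratios overall were looked for among the 15046 transcripts reaching RPKM 10 in either library, of which 73 (0.485%) were 2-fold higher and 82 (0.545%) lower. Of the 10 highest, 7 were near absent at 700 mM NaCl. The highest log2 ratio of all was that of Pc_TC012499 (2511 nt), one of the 7, which stood at 89.3 RPKM at 450 mM NaCl (13418 reads) and 6.79 in the control (965 reads), 13.2-fold higher (12.3 to 14.1). It had 6 reads at 700 mM, 20.8 RPKM in submergence in 450 mM NaCl and 107 in submergence in water. The other 6 near-absent ones, Pc_TC007271, Pc_TC106367, Pc_TC088196, Pc_TC014070, Pc_TC107425 and Pc_TC120995, had 1 to 11 reads at 700 mM, and all 6 were lower in submergence in 450 mM NaCl than in submergence in water. Each of the 7 was thus higher at 450 mM NaCl without submergence, lower in 450 mM NaCl under submergence, and lower than the control at 700 mM NaCl. The first part was fixed by the choice of the highest ratios, and the last was largely built in by the limit for near absence. At 4-fold or more, 15 transcripts of the whole set were higher, and 7 without the near-absent ones.

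The remaining 3 of the 10 were not near absent at 700 mM. Pc_TC079114 (380 nt) stood at 13.5 RPKM at 450 mM NaCl from 308 reads and at 1.02 in the control from 22 reads, 13.3-fold higher (8.60 to 21.5). Pc_TC012927 (3418 nt) stood at 15.1 RPKM in salt (3095 reads) and 2.22 in the control (430 reads), 6.81-fold higher (6.16 to 7.56). Its level was 9.34 RPKM at 700 mM, 5.43 in submergence in 450 mM NaCl and 4.61 in submergence in water, so the difference under water was small. Pc_TC093182 (206 nt) stood at 50.9 RPKM in salt (627 reads) and 10.97 in the control (128 reads), 4.64-fold higher (3.83 to 5.65), with 21.4 at 700 mM, 32.8 in submergence in 450 mM NaCl and 8.05 in submergence in water. All 3 libraries with salt stood above both without it for this transcript.

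With the near-absent transcripts left out, 7 others complete the 10 highest, with 2.65-fold to 4.36-fold higher RPKM. They were Pc_TC012333, Pc_TC030305, Pc_TC071617, Pc_TC139450, Pc_TC106963, Pc_TC034444 and Pc_TC023467, and they were chosen after the values were seen. Pc_TC071617 lay just outside the limit for near absence, with 2 reads and 2.10% of the mean of the other libraries at 700 mM. Pc_TC030305 (1261 nt) stood at 39.8 RPKM in salt and 11.4 in the control, and at 25.2 at 700 mM, 30.1 in submergence in 450 mM NaCl and 8.16 in submergence in water. Pc_TC106963 (453 nt) stood at 60.7 RPKM in salt and 22.1 in the control, with 84.7 and 16.01 in submergence in 450 mM NaCl and in water. Both were higher in salt both without submergence and under it.

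**Figure D4:**
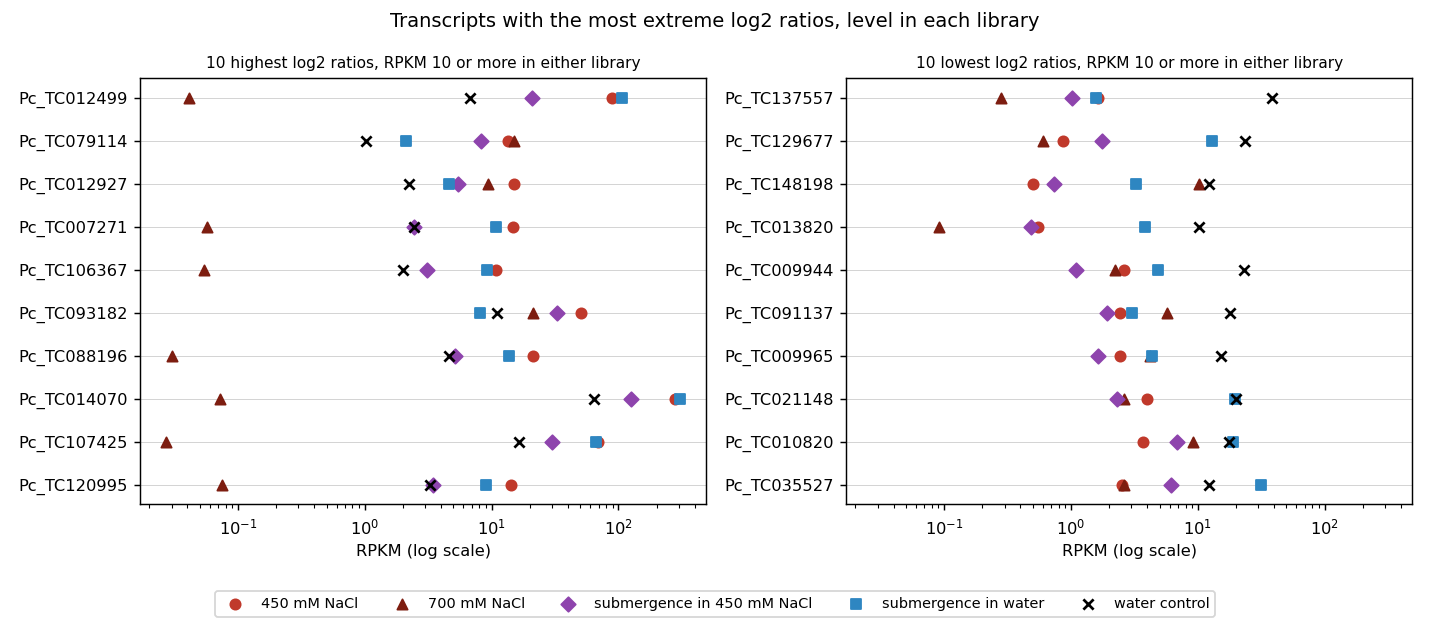
RPKM on a log axis in each of the 5 libraries for the 10 transcripts with the highest and the 10 with the lowest log2 ratio of 450 mM NaCl to water control, among those reaching RPKM 10 in either. On the left, 7 of the 10 lie below 0.1 RPKM at 700 mM NaCl; on the right, all 10 lie at or below 4 RPKM at 450 mM NaCl and above 10 in the control.

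The 10 lowest transcripts were 4.82-fold to 27.3-fold lower in salt, and none was near absent at 700 mM by the 2% limit. Pc_TC013820 and Pc_TC137557 lay just outside that limit, at 2.42% (8 reads) and 2.66% (12 reads) of the mean of the other libraries. Pc_TC137557 (726 nt) stood at 1.63 RPKM at 450 mM NaCl (71 reads) and 38.3 in the control (1575 reads), 23.4-fold lower (18.5 to 30.2). It stood at 0.283 RPKM at 700 mM, 1.01 in submergence in 450 mM NaCl and 1.59 in submergence in water, so the control alone was high. Pc_TC129677 (424 nt) stood at 0.867 RPKM in salt (22 reads) and 23.7 in the control (569 reads), 27.3-fold lower (17.9 to 43.9). It had 0.605 RPKM at 700 mM, and 1.76 in submergence in 450 mM NaCl against 12.9 in submergence in water. The libraries with salt were thus all low and those without it high.

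The same division by salt was seen in others of the 10. Pc_TC013820 (1502 nt) stood at 0.545 RPKM in salt and 10.3 in the control, with 0.091 at 700 mM, and 0.480 and 3.81 in submergence in 450 mM NaCl and in water. Pc_TC021148 (1016 nt) stood at 3.97 RPKM in salt and 20.2 in the control, with 2.63 at 700 mM, and 2.33 and 19.7 under water with and without salt. Pc_TC035527 (937 nt) stood at 2.53 RPKM in salt and 12.3 in the control, with 2.61 at 700 mM, and 6.12 and 31.6 under water with and without salt. Pc_TC148198 (201 nt) went another way, at 0.499 RPKM in salt (6 reads) and 12.3 in the control (140 reads) but 10.1 at 700 mM, 24.6-fold lower at 450 mM (11.04 to 68.3). The remaining 4, Pc_TC009944, Pc_TC091137, Pc_TC009965 and Pc_TC010820, were 8.83-fold, 7.35-fold, 6.29-fold and 4.82-fold lower. Of the 10, 8 were also 2-fold or more lower in submergence in 450 mM NaCl than in submergence in water, and none was 2-fold higher. Over the whole set, 2.38% were lower and 5% higher in that contrast.

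One of the 3 lowest ratios in the whole set stayed under RPKM 10. Pc_TC085021 (441 nt) stood at 0.038 RPKM at 450 mM NaCl, a single read, against 6.85 in the control from 171 reads. Its ratio of RPKM was 181-fold lower with a counting interval from 31.98 to 7175. The other 3 libraries had 1, 2 and 3 reads, so this transcript was seen almost only in the control. At 700 mM NaCl it stood at 2.21% of the mean of the other libraries, just outside the limit for near absence.

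The called groups were then followed through the libraries that the ratio did not use. RPKM above 0 was required in those libraries too, so they also shaped the groups in part. The 666 higher transcripts had a median of 2.16 RPKM at 450 mM NaCl and 0.644 in the control, and 1.63 at 700 mM, 1.31 in submergence in 450 mM NaCl and 0.803 in submergence in water. The 1906 lower ones had a median of 0.504 RPKM at 450 mM NaCl and 2.05 in the control, and 0.947 at 700 mM, 1.36 in submergence in 450 mM NaCl and 1.92 in submergence in water. In both groups the medians at 700 mM and in submergence in 450 mM NaCl lay between those of 450 mM NaCl and the control, and submergence in water lay nearest the control. The groups were chosen for a wide gap between 450 mM NaCl and the control. Any other library will therefore tend to fall in between by that choice alone. In the lower group the interquartile range was 0.280 to 1.03 RPKM at 450 mM NaCl and 1.38 to 3.49 in the control, apart as the choice of the group brings, while those of the other 3 libraries overlapped each other.

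**Figure D5:**
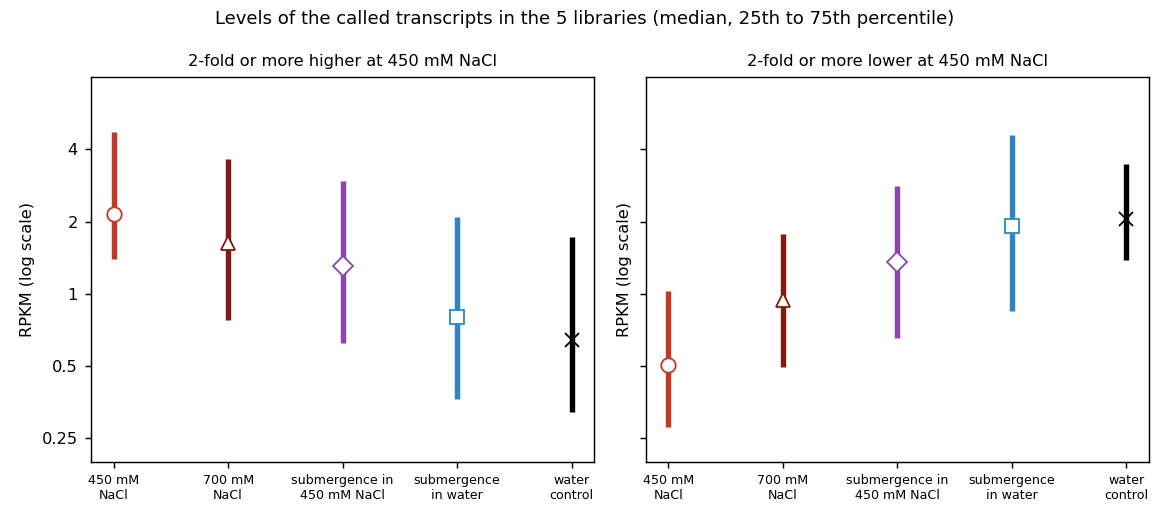
Median RPKM (symbol) and 25th to 75th percentile (bar) on a log axis in the 5 libraries, for the 666 transcripts higher (left) and the 1906 lower (right) at 450 mM NaCl. Level at 450 mM NaCl and in the control chose the groups. The other 3 libraries entered the choice only through the condition of RPKM above 0. The medians of those 3 run from 0.803 to 1.63 RPKM on the left and from 0.947 to 1.92 on the right.

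Submergence in 450 mM NaCl against submergence in water repeats the salt contrast with no library in common. Over the 68397 transcripts, 5% were 2-fold higher and 2.38% lower in that contrast. Of the 666 higher transcripts, 162 (24.3%) were 2-fold higher there too, which is 4.74% of all that were higher in that contrast, and 50 (7.51%) were lower. Of these 50, 24 were near absent at 700 mM NaCl, and the 43 near-absent transcripts had a median log2 ratio of −1.36 in this contrast. Of the 1906 lower transcripts, 342 (17.9%) were 2-fold lower there too, 21.0% of all that were lower in that contrast, and 43 (2.26%) were higher. The median log2 ratio of that contrast was 0.41 in the higher group, −0.41 in the lower group and 0.00 over transcripts within 2-fold. Across all 68397 transcripts Pearson's r between the log2 ratios of the contrasts was 0.43 and Spearman's rho 0.46, as a description over transcripts that share lengths and libraries. Most called transcripts were therefore within 2-fold when salt was given under water.

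Set beside the other treatments on the same transcripts, 450 mM NaCl had the fewest calls against the control. At 2-fold either way, 3.76% of the 68397 transcripts were called at 450 mM NaCl, 6.57% at 700 mM NaCl, 8.66% in submergence in 450 mM NaCl and 19.6% in submergence in water. The set was chosen on levels at 450 mM NaCl and in the control and on RPKM above 0 in every library. These comparisons share the control library, the libraries differ in depth, and the differences between the percentages were not tested.

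Transcripts on either side of the RPKM minimum had similar shares of calls. Of the 3465 transcripts with RPKM 1 to 1.1 in the library where they were higher, 1.21% were 2-fold higher and 4.18% lower, and of the 3939 with RPKM 0.9 to 1, 1.14% and 3.66%. Between log2 ratios of 1 and 1.1 lay 218 transcripts, and 299 between 0.9 and 1. On the other side 555 lay between −1.1 and −1, and 736 between −1 and −0.9.

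The summed change was spread over many transcripts. Added over the set, the absolute differences came to 17.3% of the summed RPKM in the control. The 3886 transcripts with the largest differences (5.68% of the set) held 50% of that sum, and those past 2-fold held 6.94%. Transcripts above the control gained 65664 RPKM in all and those below it lost 57381. The bulk of the summed difference therefore lay in transcripts that stayed within 2-fold.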

How the data were processed

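RNA-sequencing of 1 library per treatment was deposited as RPKM per assembled transcript. Per the series text, the authors filtered reads with NGS QC Toolkit, mapped them to *Porteresia* transcripts and calculated the RPKM. The sources used here name neither the mapper nor program versions, nor how reads shared by near-identical copies were treated, so single transcripts of such copies are uncertain.

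RPKM was used as deposited. Read totals, lengths of at least 200 nt and whole reads were solved from the RPKM steps: 99.6% of values above 0 lay no more than 0.0001 from a whole read, and reads summed to 99.1% of the totals. The shortest fitting length was taken, so a length and its reads may be a common divisor of the true ones. Reads served for counting error, intervals and filters. The steps were tested on simulated data.

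Calls are by size alone: 2-fold or more after adding 0.5 to both values. Named were the 10 highest and 10 lowest ratios among transcripts reaching RPKM 10, the 5 highest and 5 lowest with a mean RPKM from 100 on, the 10 most abundant, and the 3 highest and 3 lowest of all; the highest that were not near absent at 700 mM NaCl were added after the values were seen. Alternatives were other pseudocounts, filters and scalings. The transcripts, limits and rules were chosen with earlier results of these data known. Gene lists could not be applied. Software was Python 3.11.15, numpy 2.4.6, pandas 2.3.3, SciPy 1.17.1 and matplotlib 3.10.9.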

Additional observations from a re-analysis of the deposited data

Results flagged for a closer look

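Transcripts whose salt contrast pointed in opposite directions without submergence and under it are listed here as counts; each contrast rests on single libraries and the difference between them was not tested. There were 50 transcripts that were 2-fold higher at 450 mM NaCl than in the control and 2-fold lower in submergence in 450 mM NaCl than in submergence in water, and 24 of these were near absent at 700 mM NaCl. Another 43 went the other way. The 50 were 7.51% of the 666 higher transcripts, against 2.38% of the whole set lower in the contrast under submergence. The 43 were 2.26% of the 1906 lower transcripts, against 5% of the whole set higher in that contrast. With a pseudocount of 0.1 the counts of 50 and 43 became 108 and 191, and with a pseudocount of 1 they were 29 and 16.

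Outside the described set, 1407 transcripts with RPKM 0 in at least 1 library were 2-fold higher at 450 mM NaCl than in the control. For 131 of them RPKM was 0 in the control itself, so that call was built in.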

How the results depend on the processing

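No paired analysis was possible because each treatment has 1 library, and no replicate could be left out. The median log2 ratio of −0.09 was −0.0954 with a pseudocount of 0.1, −0.0769 with 1, −0.0237 at a minimum RPKM of 5, −0.0931 with no minimum, −0.104 at equal sums and −0.0758 with no condition on the other libraries. Median-of-ratios scaling turned it to 0.00106, since its log2 factor of −0.09 centres the ratios by construction. The 666 higher and 1906 lower transcripts became 1459 and 4015 with a pseudocount of 0.1, 237 and 751 with 1, 155 and 275 at a minimum RPKM of 5, and 327 and 1049 with at least 10 reads in each library. With no condition on the other libraries 2073 were higher. After median-of-ratios scaling they were 913 and 1577. The median absolute log2 ratio of the 100 most abundant transcripts moved to 0.30 with median-of-ratios scaling. The difference of 0.29 between the medians of abundant and weak transcripts was 0.34 with a pseudocount of 0.1, 0.25 with 1, 0.23 with no minimum and 0.18 with levels from the other 3 libraries; at a minimum of RPKM 5 it could not be computed. Where no construction shows it, the cause was not tested.

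Leaving out the near-absent transcripts, an alternative chosen after seeing the data, gave 638 higher and 1903 lower. The 49 named transcripts gave 469 recomputed ratios, with no value where a setting left a transcript out. No called ratio turned direction, and 50 moved beyond counting error, 25 of them under median-of-ratios scaling. At a median of 112 and 117 reads, depth limits ratios of weak, short transcripts most.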
